A study of Rattus norvegicus with 24 samples.

Results

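Transcripts of 5 genes that mark inhibitory neurons were followed through the hippocampus of male Sprague-Dawley rats. They are Gad1 (ENSRNOG00000000007), Gad2 (ENSRNOG00000018200), Slc32a1 (ENSRNOG00000015393), Pvalb (ENSRNOG00000006471) and Sst (ENSRNOG00000001837), chosen by name as genes of GABA interneurons, and they are 5 of the 32883 genes in the count table. All 5 were in the table and all 5 passed the filter on low counts, which left 14838 genes. The symbols are those given with the choice of genes. None of the tables at hand pairs Ensembl rat identifiers with symbols, so the pairing was not checked against a second source, and markers of other cell types or of neighbouring brain regions could not be looked up.

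Interneurons are the local inhibitory neurons of the hippocampus and release GABA, the main inhibitory transmitter of the brain. GABA is made from glutamate by glutamate decarboxylase, which Gad1 and Gad2 encode, and is loaded into synaptic vesicles by the transporter that Slc32a1 encodes. These genes are shared by nearly all GABA neurons, whereas Pvalb and Sst mark subclasses. Parvalbumin is a calcium-binding protein of fast-spiking basket and axo-axonic cells, which inhibit the cell bodies and axons of pyramidal neurons. Somatostatin is a neuropeptide of cells that mainly inhibit dendrites.

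The design crossed training with corticosterone, the glucocorticoid that rat adrenals mainly secrete, to study how glucocorticoids enhance memory. There were 7 libraries from rats given vehicle without training, 6 from rats given corticosterone without training, 5 from trained rats given vehicle and 6 from trained rats given corticosterone. The labels name neither the training task nor the dose, the age or the time of sampling. They number the samples without stating that each was a separate rat, and the p-values reflect only how these samples varied, which may in part be technical variation.

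Total counts in genes lay between 13760331 and 16765088 reads per library. There were 2 sets of libraries that stood apart over all 14838 genes tested. On the first principal component, which held 31.5% of the variance, 8 libraries lay between 19.04 and 36.5 and the other 16 at 0.00267 or below. In those 8 the gene with the largest loading, ENSRNOG00000016275, was at 1748 to 4674 CPM (read counts of a gene divided by the TMM-scaled library total in genes and brought to a common size), against 5.70 to 458 CPM in the 16. Corticosterone rats gave 6 of them, 3 untrained and 3 trained, and vehicle rats gave 1 untrained and 1 trained library. On the second component, with 9.32% of the variance, samples 9, 20 and 32 lay between -27.1 and -21.8 and the other 21 between -9.77 and 16.2. Where leaving out the 8 or the 3 moved a difference described for a single gene by over 1.5 times, the value without them stands beside it. Sample 41 is labelled as untrained vehicle, but its column follows those of the trained vehicle group and precedes those of trained corticosterone. It was used as labelled.

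The promoter windows of the genes are shown as background. Whether their sequence bears on which genes varied together was not tested. Each runs from 250 bases before to 50 bases after the RefSeq gene start in build GRCr8, found by symbol, whereas the counts were made on rn6. Letters in capitals match 1 of 5 motifs searched on both strands. These are the cyclic AMP response element TGACGTCA, its first 5 letters TGACG (which lie within the full element), the glucocorticoid response element (GNACA and TGTNC separated by 3 bases of any kind), the AGAACA hexamer found in sites for steroid receptors, and the TATA box TATAAA.
Gad1, chr3:75777202-75777501, forward strand: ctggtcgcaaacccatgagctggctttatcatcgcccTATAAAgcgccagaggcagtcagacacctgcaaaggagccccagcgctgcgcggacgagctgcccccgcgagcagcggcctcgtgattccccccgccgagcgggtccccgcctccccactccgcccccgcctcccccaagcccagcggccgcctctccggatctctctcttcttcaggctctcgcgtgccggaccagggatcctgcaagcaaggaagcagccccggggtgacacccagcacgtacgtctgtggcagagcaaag
Gad2, chr17:89671468-89671767, forward strand: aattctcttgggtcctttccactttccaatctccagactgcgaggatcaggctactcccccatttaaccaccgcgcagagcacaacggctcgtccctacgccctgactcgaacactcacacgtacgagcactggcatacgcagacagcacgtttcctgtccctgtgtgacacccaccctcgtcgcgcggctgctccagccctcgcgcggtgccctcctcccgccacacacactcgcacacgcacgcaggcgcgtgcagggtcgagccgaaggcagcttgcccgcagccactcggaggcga
Slc32a1, chr3:167686995-167687294, forward strand: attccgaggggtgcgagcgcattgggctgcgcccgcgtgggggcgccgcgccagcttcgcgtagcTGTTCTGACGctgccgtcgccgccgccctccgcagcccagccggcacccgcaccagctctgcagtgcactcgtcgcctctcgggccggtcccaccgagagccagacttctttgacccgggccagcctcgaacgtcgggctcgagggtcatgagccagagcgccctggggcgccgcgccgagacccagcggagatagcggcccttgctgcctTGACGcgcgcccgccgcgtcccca
Pvalb, chr7:111666240-111666539, reverse strand: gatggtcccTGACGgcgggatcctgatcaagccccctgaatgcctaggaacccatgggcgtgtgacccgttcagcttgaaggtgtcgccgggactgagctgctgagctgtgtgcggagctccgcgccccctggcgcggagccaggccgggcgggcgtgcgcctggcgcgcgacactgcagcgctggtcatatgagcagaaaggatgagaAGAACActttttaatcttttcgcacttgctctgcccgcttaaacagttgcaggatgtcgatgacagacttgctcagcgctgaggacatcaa
Sst, chr11:90461296-90461595, forward strand: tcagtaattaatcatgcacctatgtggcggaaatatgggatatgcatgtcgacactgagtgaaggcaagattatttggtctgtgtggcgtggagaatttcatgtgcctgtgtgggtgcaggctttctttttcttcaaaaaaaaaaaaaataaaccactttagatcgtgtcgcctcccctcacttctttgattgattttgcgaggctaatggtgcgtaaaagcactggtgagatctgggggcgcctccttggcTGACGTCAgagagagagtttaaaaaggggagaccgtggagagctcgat

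Of 33469 promoter windows of this length, 0.439% held the glucocorticoid response element, and none of the 5 shown did (0 of 5). The TGACGTCA element stood in the Sst window alone among the 5, at position 3 counted from the gene start as 1, and 1.83% of all windows held it. AGAACA or its reverse complement TGTTCT was in the Slc32a1 and Pvalb windows and in 20.7% of all. TGACG or CGTCA was in the Slc32a1, Pvalb and Sst windows and in 21.2% of all. TATAAA or TTTATA was in the Gad1 window, at position -213, and in 14.2% of all. In Slc32a1 the TGTTCT and the upstream TGACG share 1 base, at position -180, and appear as a single capital stretch. The Gad2 window held none of the motifs (0 matches). The share of G and C was 67.7% in Gad1, 63.7% in Gad2, 73.7% in Slc32a1, 60.7% in Pvalb and 45.7% in Sst. These matches describe letters and were not tested for binding.

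No interneuron gene passed the threshold for corticosterone or for training in any of the contrasts tested. For corticosterone averaged over training, 0 of 5 passed at an edgeR adjusted p under 0.05, where 0.93% of all genes tested did. Of the 5, 4 had a log2 fold change below 0, with a median of -0.0124, against a median of 0.00221 over all genes. An unadjusted p under 0.05 was reached by 9.25% of all genes and by 0 of the 5. With DESeq2 and with limma 0 of the 5 passed. Because whole tissue was sequenced, fewer cells of a type and less RNA per cell cannot be told apart.

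**Figure D1:**
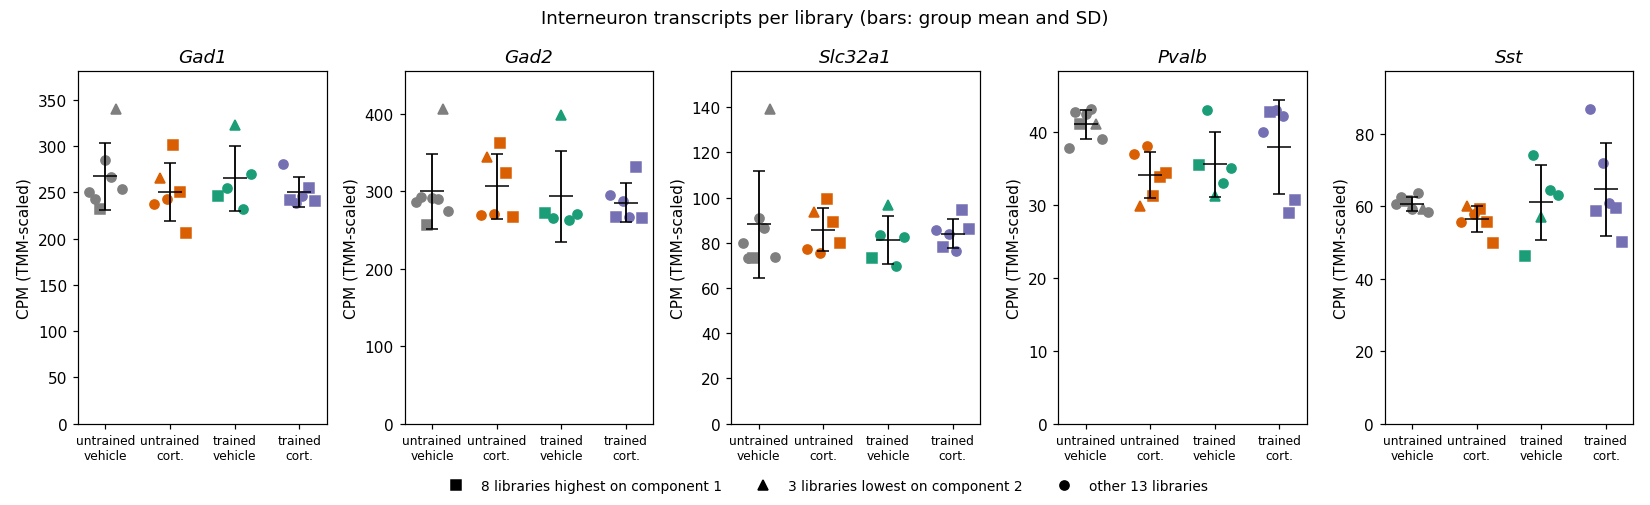
Level of each transcript in CPM (y axis, starting at 0) in every library of the 4 groups (x axis), with horizontal and vertical bars for the group mean and SD. Squares mark the 8 libraries highest on the first principal component and triangles samples 9, 20 and 32. Gad1, Gad2 and Slc32a1 are highest in sample 32 and high in sample 20, and Pvalb in untrained corticosterone lies mostly below untrained vehicle.

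Gad1, the decarboxylase that supplies most GABA in the brain, was at 232 CPM at the lowest, 253 at the median and 340.5 at the highest in untrained vehicle libraries, and at 206, 247 and 301 CPM in untrained corticosterone. In trained vehicle it was at 232, 246, 254, 270.2 and 323 CPM, and in trained corticosterone at 238, 244 and 281 CPM as lowest, median and highest. All 4 groups overlap, and the 2 highest libraries, samples 32 and 20, were both from vehicle rats. The group means were 267 ± 36.4 CPM in untrained vehicle (SD, n = 7), 265 ± 35.2 in trained vehicle (SD, n = 5), 250.5 ± 31.7 in untrained corticosterone (SD, n = 6) and 250.4 ± 16 in trained corticosterone (SD, n = 6). Neighbours in that order differed by less than either SD. The log2 fold change for corticosterone averaged over training was -0.09 (SE 0.06, 95% interval -0.22 to 0.04, edgeR adjusted p = 0.762), so the interval runs from 0.859-fold to 1.03-fold. Leaving out sample 20 alone brought this difference to -0.05, leaving out sample 32 alone also to -0.05, and leaving out samples 9, 20 and 32 to -0.02 (SE 0.05, edgeR adjusted p = 0.949). In untrained rats it was -0.09 (SE 0.09, edgeR adjusted p = 0.881), -0.03 without sample 32 and -0.04 without samples 9, 20 and 32. For training averaged over treatment it was -0.00650 (SE 0.06, edgeR adjusted p = 0.999), and 0.00973 without the 8 libraries highest on the first component.

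Gad2 encodes the decarboxylase isoform that is enriched at synaptic endings. It was at 256, 290.3 and 406 CPM (lowest, median and highest) in untrained vehicle, at 267, 298 and 362 CPM in untrained corticosterone and at 266, 277 and 331 CPM in trained corticosterone. In trained vehicle 4 libraries lay at 262, 265, 271 and 272 CPM and sample 20 at 398 CPM. Sample 20 thus stood apart from its group, as did sample 32 in untrained vehicle, where the next library was at 293 CPM. The means were 306 ± 42.4 CPM in untrained corticosterone (SD, n = 6), 299.6 ± 48.9 in untrained vehicle (SD, n = 7), 293 ± 58.4 in trained vehicle (SD, n = 5) and 285 ± 25.6 in trained corticosterone (SD, n = 6), and neighbours differed by less than either SD. Corticosterone averaged over training gave a log2 fold change of -0.00445 (SE 0.08, 95% interval -0.17 to 0.16, edgeR adjusted p = 0.994). Without samples 9, 20 and 32 it was 0.09 (SE 0.05, edgeR adjusted p = 0.649), and without the 8 libraries highest on the first component it was -0.07 (SE 0.10, edgeR adjusted p = 0.934).

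Slc32a1, the vesicular transporter, had the widest range of the 5 transcripts relative to its lowest value, from 69.7 to 139 CPM over all libraries. Lowest, median and highest levels were 73.2, 80.0 and 139 CPM in untrained vehicle, 75.7, 84.8 and 99.2 CPM in untrained corticosterone and 76.3, 84.8 and 94.7 CPM in trained corticosterone. In trained vehicle the 5 libraries were at 69.7, 73.2, 82.8, 83.5 and 96.8 CPM. Sample 32 stood alone at the top, since the next library of its group was at 91.1 CPM. The means were 88.2 ± 23.6 CPM in untrained vehicle (SD, n = 7), 85.9 ± 9.54 in untrained corticosterone (SD, n = 6), 84.1 ± 6.54 in trained corticosterone (SD, n = 6) and lowest, at 81.2 ± 10.6, in trained vehicle (SD, n = 5), with neighbours again closer than either SD. For corticosterone averaged over training the log2 fold change was 0.00710 (SE 0.09, 95% interval -0.17 to 0.19, edgeR adjusted p = 0.992). It was 0.10 without samples 9, 20 and 32 (SE 0.06, unadjusted p = 0.0844, edgeR adjusted p = 0.614), 0.08 without sample 32 alone, and -0.08 without the 8 libraries highest on the first component (SE 0.12, edgeR adjusted p = 0.934). For training averaged over treatment it was -0.07 (SE 0.09, edgeR adjusted p = 0.999), -0.02 without samples 9, 20 and 32 and -0.00141 without sample 32 alone.

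Pvalb, the marker of fast-spiking cells, gave the largest difference of the 5 for corticosterone in untrained rats and for the interaction. It was at 37.9, 41.1 and 43.2 CPM (lowest, median and highest) in untrained vehicle, at 29.9, 34.1 and 38.2 CPM in untrained corticosterone and at 28.9, 41.1 and 43.0 CPM in trained corticosterone. In trained vehicle the libraries were at 31.3, 33.1, 35.05, 35.5 and 43.0 CPM. Of the 6 untrained corticosterone libraries, 5 lay below all 7 untrained vehicle libraries, and the groups overlapped only through sample 14 at 38.2 CPM and sample 2 at 37.9 CPM. The share of all genes that came this close to separating was not computed. Within trained corticosterone, 4 libraries lay between 40.1 and 43.0 CPM and samples 33 and 40 at 28.9 and 30.7 CPM. The order of the means was 41.1 ± 2.01 CPM in untrained vehicle (SD, n = 7), 38.0 ± 6.43 in trained corticosterone (SD, n = 6), 35.6 ± 4.49 in trained vehicle (SD, n = 5) and 34.1 ± 3.19 in untrained corticosterone (SD, n = 6). Each step in that order was smaller than at least 1 of the SDs on its sides. Groups that are not neighbours in it lay farther apart. Untrained vehicle differed from untrained corticosterone, and also from trained vehicle, by more than either SD.

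Within untrained rats the log2 fold change of Pvalb for corticosterone was -0.27 (SE 0.09, 95% interval -0.45 to -0.09), a level 0.83 times that of vehicle. The unadjusted p was 0.00586 and the edgeR adjusted p was 0.378, so Pvalb did not pass. It ranked 230 by p among 14838 genes. In this contrast 0 of the 5 genes passed against 0.357% of all genes, and 1 of 5 had an unadjusted p under 0.05 against 6.39% of all. DESeq2 and limma called 0 of the 5 as well. The adjusted p came closest to the threshold, at 0.077, when only the 2 untrained groups were fitted (edgeR, log2 fold change -0.27, SE 0.06). Without the 8 libraries highest on the first component it was -0.23 (SE 0.09, edgeR adjusted p = 0.778), and without samples 9, 20 and 32 it was -0.23 (SE 0.10, edgeR adjusted p = 0.645). Without sample 41 it was -0.28 (edgeR adjusted p = 0.414).

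In trained rats the Pvalb difference had the other sign, with a log2 fold change of 0.09 for corticosterone (SE 0.10, 95% interval -0.11 to 0.29, edgeR adjusted p = 0.876). It was 0.23 without the 8 libraries highest on the first component (SE 0.10, unadjusted p = 0.0280, edgeR adjusted p = 0.601) and 0.05 without samples 9, 20 and 32 (SE 0.10). Leaving out 1 library gave values from 0.05 without sample 20 to 0.17 without sample 10. The interaction subtracts the log2 fold change of untrained rats from that of trained rats, and it was 0.36 (SE 0.13, 95% interval 0.09 to 0.63, unadjusted p = 0.0111, edgeR adjusted p = 0.962), and it did not pass. For the interaction 0 of 5 genes passed and so did 0% of all genes tested, while 1 of 5 against 4.27% of all genes had an unadjusted p under 0.05. Without the 8 libraries highest on the first component the interaction was 0.46 (SE 0.13, unadjusted p = 0.00277, edgeR adjusted p = 0.704), and without samples 9, 20 and 32 it was 0.28 (SE 0.14, unadjusted p = 0.0558, edgeR adjusted p = 0.9999). Over all libraries Pvalb ranged from 28.9 to 42.8 CPM with a median of 34.1 in the 8, and from 29.9 to 43.2 CPM with a median of 39.5 in the other 16. Training averaged over treatment gave -0.03 (SE 0.07, edgeR adjusted p = 0.999), and 0.02 without the 8. That average joins opposite directions. Under vehicle the mean was 35.6 CPM in trained and 41.1 CPM in untrained rats. Under corticosterone it was 38.0 CPM in trained and 34.1 CPM in untrained rats. Training within each treatment was not tested.

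Sst, the neuropeptide of dendrite-targeting cells, was tightly grouped in untrained rats and spread widely in trained ones. Lowest, median and highest levels were 58.3, 60.6 and 63.6 CPM in untrained vehicle, 49.96, 56.8 and 60.0 CPM in untrained corticosterone and 50.2, 60.1 and 86.9 CPM in trained corticosterone, and the trained vehicle libraries were at 46.4, 57.1, 63.1, 64.5 and 74.3 CPM. The coefficient of variation was 3.18% in untrained vehicle, where sampling of reads alone would give 3.27%, and 6.41% in untrained corticosterone. It was 16.8% in trained vehicle and 19.9% in trained corticosterone, against 3.33% and 3.10% from read sampling. The difference in spread was not tested. The 3 lowest libraries, samples 5, 39 and 40, were all among the 8 highest on the first component, in which Sst ran from 46.4 to 61.5 CPM. The differences without these 8 libraries are given next.

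The means of Sst were 64.7 ± 12.9 CPM in trained corticosterone (SD, n = 6), 61.05 ± 10.3 in trained vehicle (SD, n = 5), 60.7 ± 1.93 in untrained vehicle (SD, n = 7) and 56.4 ± 3.61 in untrained corticosterone (SD, n = 6). Only the last step, between the untrained groups, was larger than both SDs, and 4 of 6 untrained corticosterone libraries lay below all untrained vehicle ones. How many of all genes reached this was not computed. For Sst the log2 fold change between the untrained groups is given next. The log2 fold change there was -0.11 (SE 0.10, 95% interval -0.31 to 0.09, edgeR adjusted p = 0.878) in the model of all libraries, and -0.11 with an SE of 0.04 when only the untrained groups were fitted (unadjusted p = 0.0204, edgeR adjusted p = 0.559). Without the 8 libraries highest on the first component it was -0.07 (SE 0.09, edgeR adjusted p = 0.936). In trained rats it was 0.08 (SE 0.11, edgeR adjusted p = 0.90), 0.18 without the 8 (SE 0.10, edgeR adjusted p = 0.664) and -0.02 without sample 3, the highest library for Sst. The interaction was 0.19 (SE 0.14, 95% interval -0.11 to 0.49, edgeR adjusted p = 0.962), and 0.09 without sample 3. For training averaged over treatment Sst had the largest difference of the 5, with a log2 fold change of 0.10 (SE 0.07, 95% interval -0.04 to 0.25, edgeR adjusted p = 0.999). Without the 8 libraries it was 0.22 (SE 0.07, unadjusted p = 0.00406, edgeR adjusted p = 0.437), and leaving out 1 library gave values from 0.05 without sample 3 to 0.14 without sample 5. In that contrast 0 of 5 genes and 0% of all genes passed, and 0 of 5 against 3.27% of all had an unadjusted p under 0.05.

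**Figure D2:**
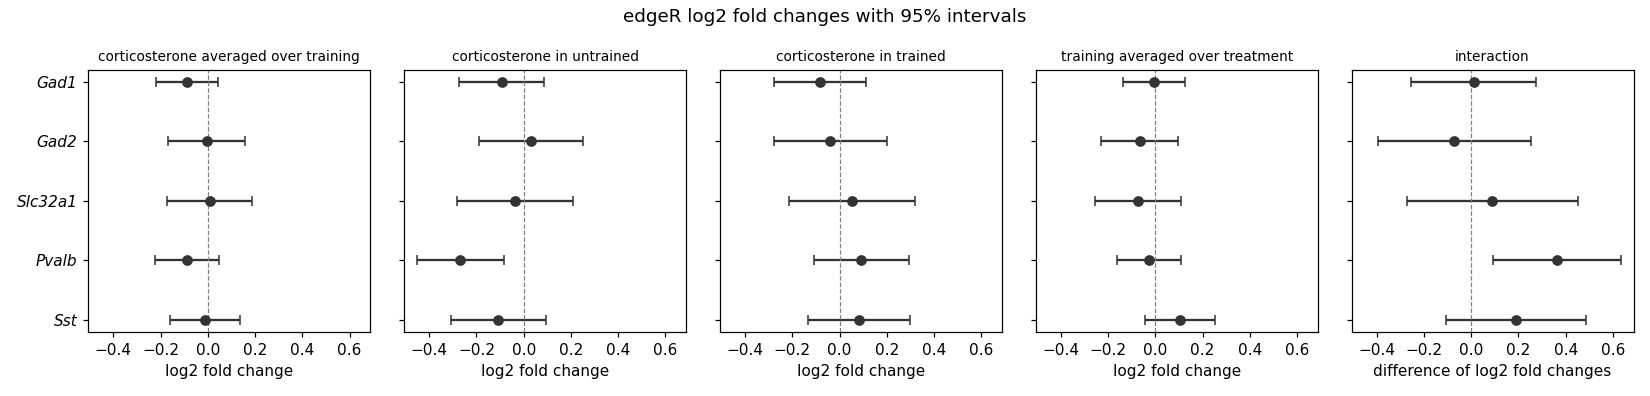
Log2 fold change (x axis) of each transcript (y axis) in the 5 contrasts of the edgeR model, 1 panel each, with dots for the estimate and bars for the 95% interval. The intervals of Pvalb for corticosterone in untrained rats (-0.45 to -0.09) and for the interaction (0.09 to 0.63) leave out 0 before adjustment over all genes, and all other intervals include it.

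For corticosterone within trained rats 0 of 5 genes passed against 0.162% of all genes (edgeR), and an unadjusted p under 0.05 was found for 0 of 5 against 7.1% of all. With DESeq2 or limma 0 of 5 passed too. The 5 log2 fold changes there lay between -0.08 for Gad1 and 0.09 for Pvalb, with a median of 0.0519 against 0.00386 over all genes. Without sample 20 alone the Gad1 value there was -0.00140. For none of the 5 genes (0 of 5) did the corticosterone and vehicle libraries separate without overlap in either training state, as they did for 0.465% of all genes in untrained and 1.04% in trained rats. The intervals bound what these libraries could have missed. Averaged over training, the 95% interval for corticosterone lay between 0.857-fold and 1.14-fold for every one of the 5 genes. That average can hide differences of opposite sign, and the bounds within each training state were wider. They reached 0.731-fold (Pvalb) and 1.19-fold (Gad2) in untrained rats, and 0.824-fold (Gad2) and 1.25-fold (Slc32a1) in trained rats.

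Over the 4 groups together the 5 transcripts varied between libraries by more than read sampling, although in untrained vehicle the spread of Sst was no wider than sampling alone would give. After removal of group means the SD of log2 CPM was 0.16 for Gad1, 0.20 for Gad2, 0.22 for Slc32a1, 0.17 for Pvalb and 0.19 for Sst, where counting alone would give 0.02 to 0.06. The fitted biological coefficients of variation were 11.02%, 13.5%, 14.9%, 10.9% and 12.2% in the same order, and the median over genes averaging 1 CPM or more was 8.22%.

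**Figure D3:**
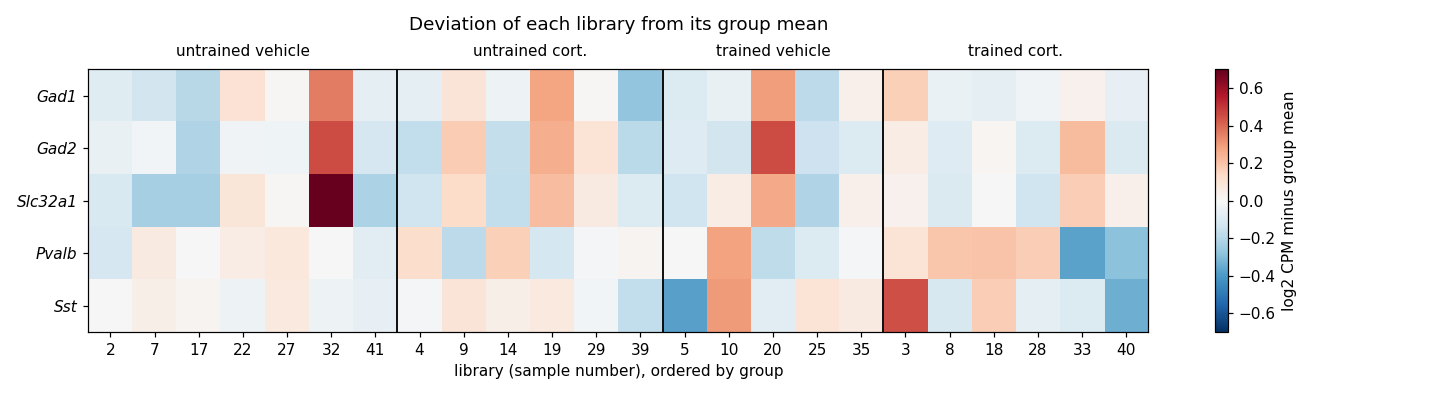
Log2 CPM minus the group mean (colour, from blue for lower to red for higher) of the 5 transcripts (rows) in the 24 libraries (columns, by sample number within each group). The top 3 rows share their red columns, samples 32, 19 and 20, while Pvalb and Sst follow other columns.

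Gad1, Gad2 and Slc32a1, the genes of GABA synthesis and vesicular loading, varied together from library to library within groups. Over 24 libraries, with group means removed, Pearson's r was 0.86 between Gad1 and Gad2 (Spearman's rho 0.72, permutation p = 2e-05 and 0.00016). Between Gad1 and Slc32a1 r was 0.84 (rho 0.81, permutation p = 1e-05 and 4e-05), and between Gad2 and Slc32a1 it was 0.86 (rho 0.72, permutation p = 1e-05 and 0.00031). The tests were two-sided with 1e+05 shuffles of libraries within groups, for which 1e-05 is the smallest p that can be given. Adjusted over the 10 pairs of genes, the p-values of r were 6.67e-05, 5e-05 and 5e-05. These libraries share depth, scaling and tissue composition across genes.

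Samples 32 and 20 lay farthest out on this axis. Without them r was 0.74 for Gad1 with Gad2, 0.74 for Gad1 with Slc32a1 and 0.78 for Gad2 with Slc32a1. Without samples 9, 20 and 32 it was 0.71, 0.72 and 0.75, with permutation p-values adjusted over 10 pairs of 0.0108, 0.0062 and 0.0029. Among the 16 libraries low on the first component r was 0.87, 0.89 and 0.84. The 3 genes therefore kept an adjusted permutation p under 0.05 in each of these subsets of libraries.

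Pvalb and Sst did not follow the 3 genes. For Pvalb with Gad2 r was -0.42 (rho -0.33, permutation p = 0.0319 and 0.109, adjusted p = 0.0797 and 0.218 over 10 pairs), which did not pass. For Pvalb with Sst r was 0.40 (rho 0.24, permutation p = 0.183 and 0.361, adjusted p = 0.305 and 0.516), and without samples 33 and 40, the farthest for Pvalb, it was 0.24. The remaining 5 pairs had r between -0.28 and 0.20, with the smallest adjusted permutation p of r at 0.153. Some libraries were high for Gad2 and low for Pvalb, and others were not. Sample 20 was at 398 CPM for Gad2, the highest in its group, and at 31.3 CPM for Pvalb, the lowest. Sample 9 was at 344 CPM for Gad2 and at 29.9 CPM for Pvalb, the lowest in its group, and sample 33 at 331 and 28.9 CPM. Sample 32 broke this pattern, with 406 CPM for Gad2 and 41.1 CPM for Pvalb. So did samples 40 and 25, each the lowest of its group for Gad2, at 266 and 262 CPM. Their Pvalb was also low, at 30.7 and 33.1 CPM.

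**Figure D4:**
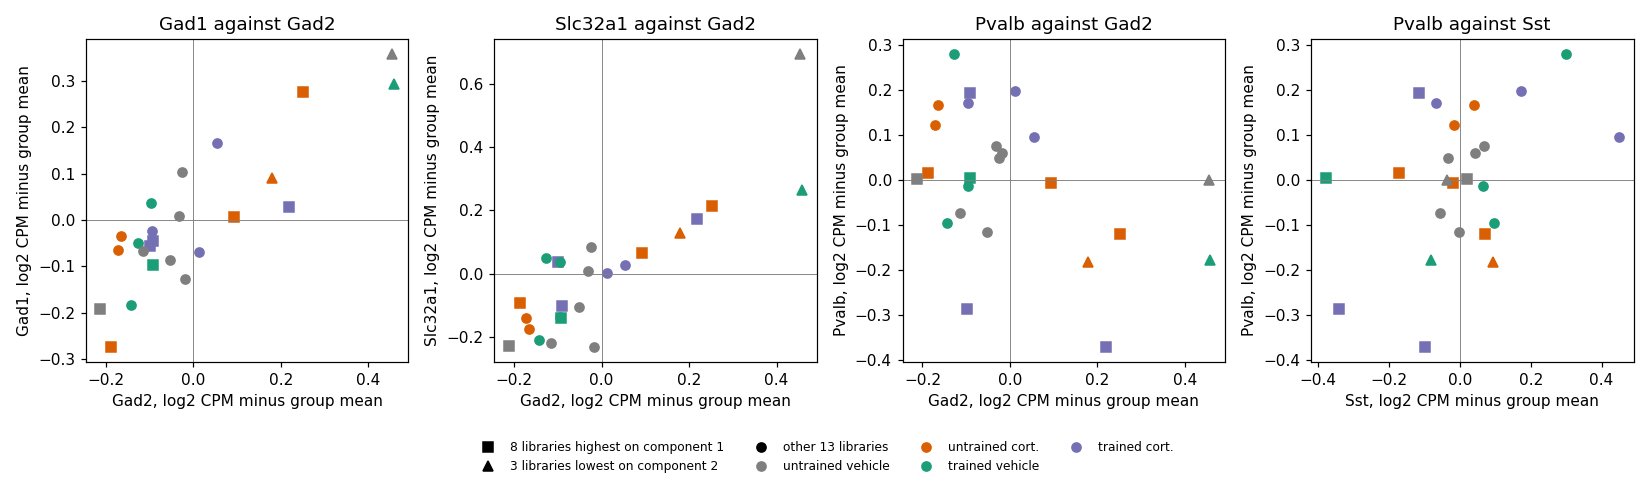
Log2 CPM minus the group mean in each of 24 libraries, for Gad1, Slc32a1 and Pvalb against Gad2 and for Pvalb against Sst. Colours give the group, squares the 8 libraries highest on the first component and triangles samples 9, 20 and 32. Points run along the rising diagonal in the first 2 panels (r = 0.86 in each) and scatter in the others (r = -0.42 and 0.40).

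Each transcript was also set against all 13795 genes averaging 1 CPM or more, ranked by r with group means removed. For Gad1 the closest of the other 13794 genes was Gad2 and the next was Slc32a1. For Slc32a1, Gad2 ranked 3 and Gad1 ranked 8, and for Gad2, Gad1 ranked 21 and Slc32a1 ranked 23. Pvalb and Sst lay far down these lists, with Sst at rank 2950 and Pvalb at rank 10609 for Gad1, and at ranks 5816 and 12745 for Gad2. For Pvalb the nearest of the other 4 was Sst at rank 1329, and for Sst it was Pvalb at rank 1653.

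The gene most like Gad2 was ENSRNOG00000061182 (r = 0.94), which lay at 2.15 to 6.10 CPM in samples 9, 20 and 32. In the other 21 libraries its median was 0.61 CPM and its highest level 2.98 CPM, and 2 of the 3 samples lay above that. Its median over all libraries was 0.66 CPM, so it averaged 1 CPM only through the libraries where it was high. Its rank and r therefore rest on low counts and on those libraries. The gene most like Slc32a1 was ENSRNOG00000015835 (r = 0.90), which lay at 70.8 to 123 CPM in samples 9, 20 and 32. In the other 21 libraries its median was 48.0 CPM and its highest level 79.8 CPM, and again 2 of the 3 samples lay above that. The gene most like Pvalb was ENSRNOG00000055401 (r = 0.83, 90.3 to 118 CPM), and the gene most like Sst was ENSRNOG00000034022 (r = 0.82, 51.8 to 71.8 CPM). None of these 4 genes passed for corticosterone averaged over training (0 of 4, smallest edgeR adjusted p = 0.708), where 0.93% of all genes tested did. Of the 100 genes most like each transcript, the 5 aside, Gad2 and Slc32a1 shared 68, Gad1 and Slc32a1 shared 62 and Gad1 and Gad2 shared 56. Pvalb shared 4 with Sst and 0 with each of Gad1, Gad2 and Slc32a1, and Sst also shared 0 with those 3. The number that unrelated lists would share was not computed, so the low counts are description only. All libraries were used for these lists, samples 9, 20 and 32 among them.

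**Figure D5:**
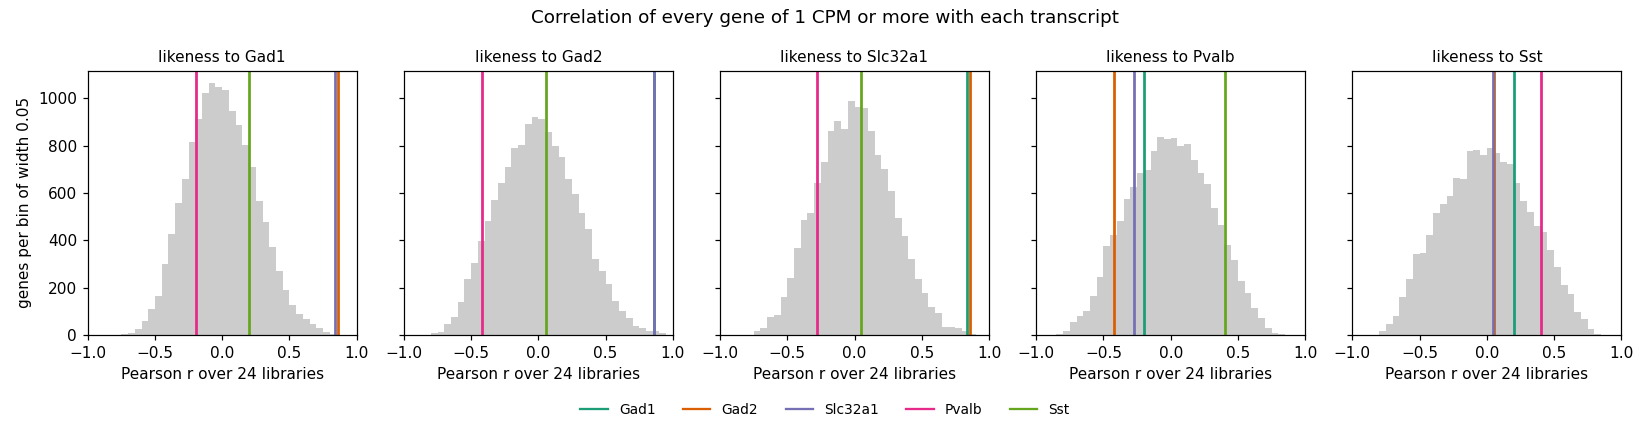
Number of genes (y axis) by Pearson's r with each transcript over 24 libraries, group means removed (x axis, bins of 0.05), with coloured lines at the other 4 interneuron genes. In the first 3 panels the lines of the other GABA synthesis and transport genes stand at the right edge (r of 0.84 to 0.86). The Pvalb and Sst lines stand away from that edge, from -0.42 (Pvalb in the Gad2 panel) to 0.20 (Sst in the Gad1 panel).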

How the data were processed

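The authors deposited raw counts per Ensembl rat gene, as whole numbers. Per the submitters' processing notes, the tools were STAR 2.7.0b and HTSeq 0.6.1 and the build was rn6. Whether counting used the strand is not given in the sources used here, and overlapping or antisense genes are therefore counted with uncertainty. The 5 summary rows, 37.4% to 40.2% of each column, were left out. The closest 2 libraries of a group still differed by 4.16 chi-square units per degree of freedom, so all 24 were counted.

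Genes kept by filterByExpr were fitted with edgeR 4.0.16 (quasi-likelihood, TMM factors, R 4.3.3) as 4 group means over all libraries, with Benjamini-Hochberg adjustment over 14838 genes and a threshold of 0.05. Levels are CPM. Principal components and correlations used log2 CPM with a prior count of 2, computed from the deposited counts. Alternatives used DESeq2 1.42.0, limma 3.58.1, 1 surrogate variable from sva 3.50.0, other scaling or filters, fewer libraries, and sample number as a covariate or its runs as a block. The fits were tested on simulated data. Genes and lists were chosen with earlier results of these data known. The 5 genes were always named, along with the gene most like each. Lists by symbol (GABA handling, interneuron subclasses and transcription factors, GABA receptors, cell type markers) could not be applied, because 0 of 47357 reference genes of GRCr8 carried an Ensembl identifier. Promoter sequences are from RefSeq, build GRCr8. Intervals and SDs from counts cover sampling of reads and the spread between libraries.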

Additional observations from a re-analysis of the deposited data

Results flagged for a closer look

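In 3 of the 20 combinations of gene and group, 1 library lay apart from the others of its group by Dixon's test at the 95% level, where chance gives about 1 in 20. The combinations are not independent, because the genes share libraries and Gad2 and Slc32a1 varied together. The flags are therefore not separate events to set against that rate. Gad2 was at 406 CPM in untrained vehicle sample 32, with the next library at 293 CPM. Gad2 was at 398 CPM in trained vehicle sample 20, with the next at 272 CPM. Slc32a1 was at 139 CPM in untrained vehicle sample 32, with the next at 91.1 CPM. Both samples were also among the 3 lowest on the second principal component of all genes. The sign of that component was set so that higher Gad2 points to its low end, so this is not a separate observation of direction.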

How the results depend on the processing

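None of the 25 results for the 5 genes passed the threshold, nor did any of their 860 recomputations under 35 settings (0 of 860); 67 recomputations changed sign, all of them uncalled. The groups share no sample number, so libraries could not be paired by a common number. The numbering has structure, however. Samples 2 to 5, 7 to 10 and 17 to 20 each hold 1 library of every group, in the same order. What these runs stand for is not given in the labels. With the 10 runs of consecutive sample numbers as a block (chosen after seeing the data; no label names them as a batch, and 4 hold 1 library), Sst averaged over training was 0.0361, Slc32a1 was 0.125 in untrained and -0.0846 in trained rats, Gad1 was 0.0141 for training, and the interaction was -0.112 for Gad1 and -0.210 for Slc32a1. That block called 60 genes for corticosterone averaged over training, 24 in untrained and 6 in trained rats. The Pvalb difference in untrained rats kept its sign in all settings (-0.33 to -0.23, adjusted p from 0.077 to 0.778), as did its interaction (0.28 to 0.46). For corticosterone averaged over training, Gad2 was 0.00453 with limma, and Slc32a1 was -0.00354 and Sst 0.0591 with 1 surrogate variable. Without the 8 libraries highest on the first component (a setting chosen after seeing the data), that contrast gave -0.0812 for Slc32a1, 0.000101 for Pvalb and 0.0546 for Sst. The same setting gave -0.0592 for Gad2 in untrained and -0.0200 for Slc32a1 in trained rats, and 0.00973 for Gad1 and 0.0231 for Pvalb for training. Its correlations of Sst were -0.077 with Gad1, -0.164 with Gad2 and -0.0152 with Slc32a1. Without samples 9, 20 and 32 (also chosen after seeing the data), Gad2 was 0.0887 averaged over training, 0.0936 in trained rats and 0.00990 for the interaction, and Slc32a1 was 0.0830 in untrained rats. The causes were not tested. Leaving out 1 library at a time gave, for corticosterone averaged over training, -0.0311 to 0.0625 for Gad2, -0.0203 to 0.0802 for Slc32a1 and -0.0638 to 0.0273 for Sst. In untrained rats it gave -0.0219 to 0.120 for Gad2 and -0.0831 to 0.109 for Slc32a1, and in trained rats -0.0874 to 0.0936 for Gad2 and -0.0205 to 0.162 for Sst. For training it gave -0.0469 to 0.0271 for Gad1 and -0.0650 to 0.00688 for Pvalb, and for the interaction -0.0560 to 0.0921 for Gad1, -0.160 to 0.0621 for Gad2 and -0.0567 to 0.160 for Slc32a1. Over all genes, 138 were called for corticosterone averaged over training and 47 without the 8 libraries, which leaves 16. In untrained rats 53 were called, 87 with DESeq2, 10 without the 8 and 33 to 62 without 1 library, with the lowest count without sample 7 or 39. In trained rats 24 were called, 60 with DESeq2, 13 with only the 2 groups, 15 without the 8 and 15 to 27 without 1 library, with the lowest count without sample 10. For training and the interaction 0 genes were called under each setting. At 432 to 5929 reads per gene and library, read sampling alone would give a coefficient of variation of 1.45% to 4.37% per gene and group. In untrained vehicle this was 3.27% against 3.18% observed for Sst and 3.98% against 4.90% for Pvalb.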

Other observations

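The ratio of Gad2 to Gad1 reads within a library, which does not depend on scaling between libraries, ranged from 1.003 to 1.30. It was 1.22 ± 0.0855 in untrained corticosterone (SD, n = 6), 1.14 ± 0.0929 in trained corticosterone (SD, n = 6), 1.1198 ± 0.0653 in untrained vehicle (SD, n = 7) and 1.10 ± 0.0883 in trained vehicle (SD, n = 5). The ratio of Pvalb to Sst reads was 0.677 ± 0.0286 in untrained vehicle (SD, n = 7), 0.608 ± 0.0781 in untrained corticosterone (SD, n = 6), 0.593 ± 0.0999 in trained vehicle (SD, n = 5) and 0.597 ± 0.108 with both training and corticosterone (SD, n = 6). These are ratios of reads, not of transcripts per length, and were not tested. The 5 genes together made up 637 to 987 CPM, with the highest sum in sample 32.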
